A study of Rattus norvegicus with 8 samples.

Results

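Nr4a1, Nr4a2 and Nr4a3 are the 3 members of the NR4A subfamily of orphan nuclear receptors. Their transcripts were followed here in the hippocampus of 8 aged rats, as 3 of the 26405 gene IDs counted. They were taken as the Ensembl IDs ENSRNOG00000007607 (Nr4a1), ENSRNOG00000005600 (Nr4a2) and ENSRNOG00000005964 (Nr4a3), and all 3 had enough reads to be tested. The symbols of these 3 IDs were given with the selection, since the files themselves pair no ID with a name. The 3 were selected on measured differences between the IGF1 and DsRed libraries of these same files, by a rule that names the IDs and holds no threshold. Every difference between the groups is therefore given below as a description and not as evidence.

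The rats were female Sprague-Dawley animals aged 28 months, each given an adenovector by injection into the brain ventricles. In the 4 rats of the IGF1 group the vector expressed rat insulin-like growth factor I (IGF-I), a peptide hormone with trophic actions in the brain. The 4 rats of the DsRed group, the controls, received a placebo adenovector named for DsRed, a red fluorescent protein. Every rat of both groups had therefore had surgery and an adenovector, and there was no uninjected or young group. Each library came from the right hippocampus of 1 rat. The promoter of the vectors, the cells they entered and the time from injection to tissue collection were not stated in the sources at hand. The question was which hippocampal transcripts differ after IGF-I gene transfer in old animals.

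NR4A receptors are transcription factors that act without a known physiological ligand in most settings, because their ligand pocket is filled by bulky side chains. They bind DNA as monomers at the NGFI-B response element (NBRE), as dimers among themselves, and, for Nr4a1 and Nr4a2, as dimers with retinoid X receptors. In neurons they are immediate early genes, transcribed within minutes of synaptic activity, largely through the cAMP and CREB pathway. In the hippocampus they are known for a part in the consolidation of long-term memory.

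A promoter window of each of Nr4a1 and Nr4a2 is shown because one transcript separated the groups and the other did not. Another reason is that these windows differ in the number of CREB-type elements. No link between these facts was tested. Both sequences are from RefSeq on build GRCr8 and run from 250 bases before to 50 bases after 1 annotated start, which lies inside the gene's span in each case. RefSeq lists 4 transcripts of Nr4a1 and 7 of Nr4a2, and windows at other starts were not searched. The number of elements therefore describes these windows and not every promoter of the genes. The genome build of the counts was not stated, so the coordinates belong to the RefSeq table alone. Capitals mark CGTCA or its reverse complement TGACG, the half-site of the cAMP response element (CRE) that CREB binds.
Nr4a1, chr7:134259888-134260187, plus strand: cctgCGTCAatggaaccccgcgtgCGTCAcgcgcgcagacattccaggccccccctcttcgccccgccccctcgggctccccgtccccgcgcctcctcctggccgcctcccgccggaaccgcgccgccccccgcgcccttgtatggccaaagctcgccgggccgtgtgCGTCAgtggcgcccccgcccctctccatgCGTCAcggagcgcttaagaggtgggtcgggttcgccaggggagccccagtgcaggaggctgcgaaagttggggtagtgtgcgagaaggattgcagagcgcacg
Nr4a2, chr3:62104838-62105137, minus strand: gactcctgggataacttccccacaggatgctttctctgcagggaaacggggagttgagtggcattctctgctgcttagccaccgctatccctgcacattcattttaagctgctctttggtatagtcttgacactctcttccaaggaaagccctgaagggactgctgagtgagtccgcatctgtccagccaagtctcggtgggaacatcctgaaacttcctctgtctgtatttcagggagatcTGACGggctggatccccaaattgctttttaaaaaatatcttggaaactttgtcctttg

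The Nr4a1 window held 4 CRE half-sites on its coding strand, with first bases at -246, -226, -82 and -53 from the start. The Nr4a2 window held 1, on the other strand, at -8 to -4. At least 1 half-site on either strand was present in 21.2% of the 33469 rat promoter windows of this length. There were 4 or more in 79 windows, or 0.236%. The motif was chosen after these sequences had been read and the cut of 4 is the Nr4a1 count, so these shares are descriptions. All 4 half-sites of Nr4a1 stood within the longer word TGCGTCA. That word, looked for because it was seen in this sequence, occurred on either strand in 1.90% of windows, and Nr4a1 was the 1 window with 3 or more copies. The Nr4a1 window is rich in G and C (72.3%, against 48.7% in Nr4a2 and a median of 51.7%), and CGTCA contains a CG step. Among the 2769 windows of at least 70% G and C, 0.361% had 4 or more half-sites. Neither window held the full palindromic CRE (TGACGTCA, in 1.83% of windows), the NBRE (AAAGGTCA, in 1.43%), an EGR element (GCGTGGGCG, in 0.544%), TATAAA (in 14.2%), a CArG box of the serum response factor (in 1.64%) or a MEF2 element (in 0.565%), each searched on both strands. All were searched as exact patterns, so near matches were not counted. An example is ccttgtatgg in the Nr4a1 window, 1 base away from the CArG pattern of CC, then only A or T, then GG. TGACGTCA and TGCGTCA each contain the half-site. These matches describe letters in the reference and say nothing of what is bound in these rats.

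Nr4a1 was the member whose levels stood apart between the groups. Nr4a1, also called Nur77 or NGFI-B, is the receptor first found as a gene induced by nerve growth factor. Its level, in CPM, reads scaled to library size, was 37.7 in IGF1 replicate 1, 51.6 in replicate 2, 48.1 in replicate 3 and 45.7 in replicate 4. The placebo libraries held 83.7, 78.9, 60.3 and 61.6 CPM in the same order. All 4 libraries from rats given the IGF-I vector lay below all 4 from rats given the placebo vector, and 8.73 CPM separated the highest IGF1 from the lowest DsRed library. Within the DsRed group, replicates 1 and 2 lay well above replicates 3 and 4. The group means were 45.8 ± 5.88 CPM and 71.1 ± 11.9 CPM (SD, n = 4 each). The fitted log2 fold change was -0.64 (standard error 0.13), a level in the IGF1 group 0.643 times that in the DsRed group. These values rest on 786 to 2049 reads per library, so counting error alone was 2.21% to 3.57% of each value. The coefficient of variation between rats was 12.9% for IGF1 and 16.7% for DsRed, well above that error. Counting error leaves out the variation between rats, which the SDs and the standard error above include.

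**Figure D1:**
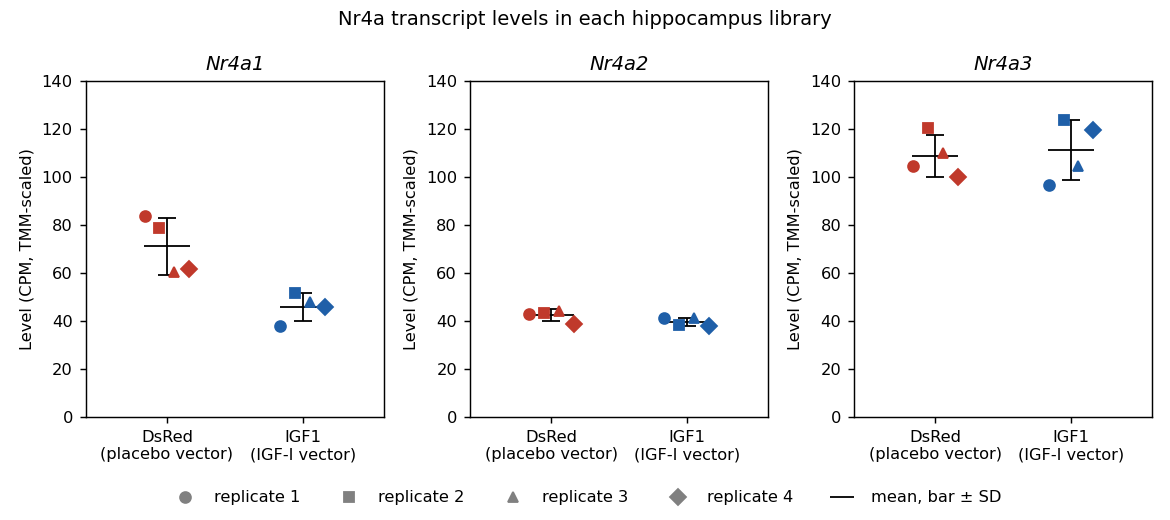
Level of each Nr4a transcript (CPM on TMM-scaled library sizes, vertical axis from 0) in the 4 DsRed and 4 IGF1 libraries. Symbols mark the replicate number, and the horizontal line and bar give the mean and SD of the group. For Nr4a1 the IGF1 libraries lie between 37.7 and 51.6 CPM, all below the DsRed libraries at 60.3 to 83.7 CPM, while both groups overlap for Nr4a2 and Nr4a3.

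Nr4a2 was close to level between the groups. Nr4a2, or Nurr1, is best known as the factor that midbrain dopamine neurons need to form and survive. Replicates 1 to 4 of the IGF1 group held 41.2, 38.2, 41.2 and 38.1 CPM. Those of the DsRed group held 43.1, 43.4, 44.3 and 38.6 CPM. The groups overlapped through DsRed replicate 4, the lowest of its group, which lay below IGF1 replicates 1 and 3. The means were 39.7 ± 1.76 CPM and 42.4 ± 2.53 CPM (SD, n = 4 each), with a fitted log2 fold change of -0.09 and a standard error of 0.060. With 656 to 1128 reads per library, the counting error was 2.98% to 3.90%. The coefficients of variation, 4.43% for IGF1 and 5.96% for DsRed, were not far above it, so part of the spread between these rats is counting error.

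Nr4a3 lay at the same level in both groups within their spread. Nr4a3, also named NOR-1, is the third receptor of the subfamily and, like the others, an activity-induced gene. Replicates 1 to 4 held 96.8, 123.7, 104.6 and 119.5 CPM after the IGF-I vector and 104.6, 120.4, 109.9 and 99.97 CPM after placebo. The highest and the lowest of the 8 libraries both belonged to the IGF1 group, which enclosed the DsRed group. The means were 111.1 ± 12.6 CPM and 108.7 ± 8.76 CPM (SD, n = 4 each), with a fitted log2 fold change of 0.03 and a standard error of 0.087. Between 1685 and 3126 reads supported each value, a counting error of 1.79% to 2.44%. RefSeq places a long noncoding RNA gene, LOC134478966, over part of Nr4a3, and it lists no gene overlapping Nr4a1 or Nr4a2. Whether the counting used strand was not stated, so reads of that RNA and of Nr4a3 may not be told apart. The levels of the 3 receptors are not ranked against each other, because transcript lengths were not used here and CPM is not per length.

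Ratios between members within a library do not depend on how libraries are scaled. The ratio of Nr4a1 to Nr4a3 reads was 0.39, 0.42, 0.46 and 0.38 in the 4 IGF1 libraries, by replicate number, and 0.80, 0.66, 0.55 and 0.62 in the DsRed libraries. The groups did not overlap, with means of 0.412 ± 0.035 and 0.655 ± 0.106 (SD, n = 4 each). For Nr4a1 to Nr4a2 the ratio was 0.92, 1.35, 1.17 and 1.20 in the IGF1 libraries and 1.94, 1.82, 1.36 and 1.59 in the DsRed libraries. These groups nearly touched, at 1.351 in IGF1 replicate 2 and 1.361 in DsRed replicate 3. The counts behind these 2 values carried counting errors of 2.67% to 3.78% each, so their order is not resolved. The ratio of Nr4a2 to Nr4a3 overlapped, at 0.362 ± 0.057 for IGF1 and 0.390 ± 0.023 for DsRed (SD, n = 4 each). Nr4a1 was thus lower relative to Nr4a3 in every IGF1 library than in any DsRed library. Relative to Nr4a2 the separation lay within counting error. Both ratios carry the Nr4a1 difference on which the members were selected, and ratios of other genes were not examined.

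**Figure D2:**
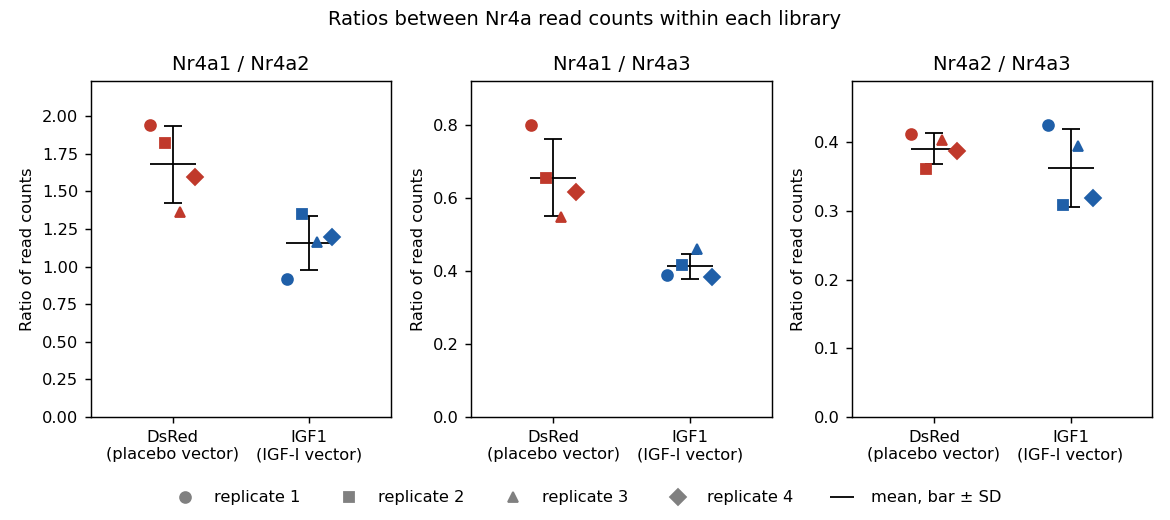
Ratio of deposited read counts between pairs of Nr4a members within each library (vertical axes from 0, each with its own range), by group, with the mean and SD. The ratio of Nr4a1 to Nr4a3 separates the groups. For Nr4a1 to Nr4a2 the groups nearly touch, with a gap within counting error, and the ratio of Nr4a2 to Nr4a3 overlaps.

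Across the whole table, no gene passed the planned test. Of 14522 IDs, 0 (0%) reached a Benjamini-Hochberg adjusted p under 0.05 by the quasi-likelihood test of edgeR, the 3 NR4A members included. That test listed 958 IDs (6.60%) when p was left unadjusted. Of the members, 1 of 3 had all IGF1 libraries below all DsRed libraries, beside 286 of all IDs (1.97%), and nothing is read from that count for genes selected on the same contrast. A fitted change at least as far down as that of Nr4a1 was found for 94 IDs (0.647%). In either direction, the absolute log2 fold change exceeded that of Nr4a1 in 1.58% of IDs. It exceeded that of Nr4a2 in 45.0% of IDs and that of Nr4a3 in 79.6%, beside a median over all IDs of 0.08. Other tools treated Nr4a1 differently. edgeR's likelihood ratio test called 11 IDs (0.0757%) and DESeq2 called 12 of the 17492 IDs with an adjusted p (0.0686%), both under 0.05, and Nr4a1 was among both sets as a lower gene, while limma voom called 0 and listed 995 at an unadjusted p under 0.05. Since the gene was picked with this contrast known, these calls are no separate support for it.

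**Figure D3:**
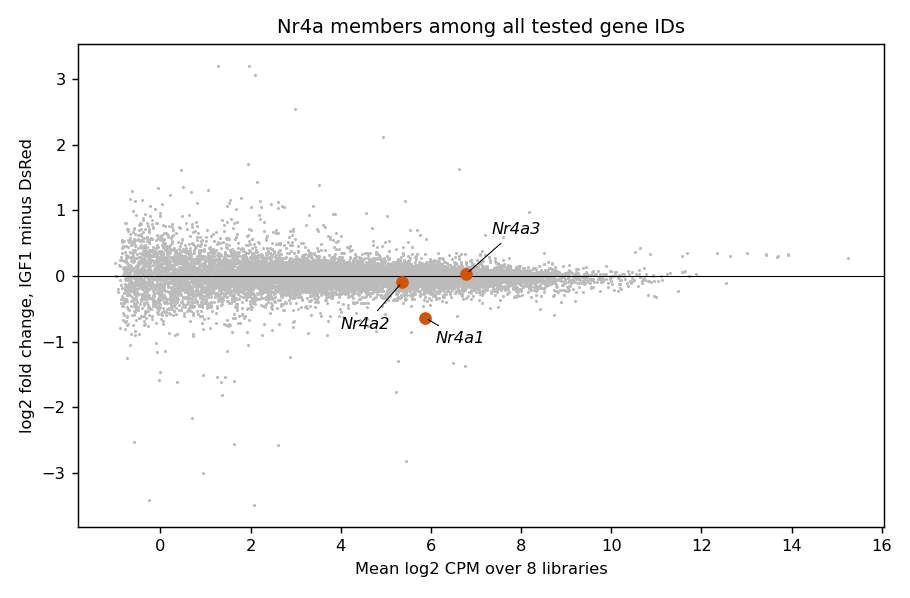
Fitted log2 fold change (IGF1 minus DsRed, vertical axis) against mean log2 CPM over the 8 libraries (horizontal axis) for the 14522 tested IDs, in grey, with the Nr4a members in orange. Nr4a1, at -0.64, lies below most IDs of like level, and Nr4a2, at -0.09, and Nr4a3, at 0.03, lie among them.

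The library that stood apart and its removal bear on these values. IGF1 replicate 1 correlated less well with the other libraries across genes, with a mean Spearman's rho of 0.986 where the rest had 0.991 to 0.994, and it also had the lowest Nr4a1 level. Without it the Nr4a1 log2 fold change came to -0.55 (standard error 0.12). DsRed replicate 1 held the highest Nr4a1 level, and without that library the value was -0.55 (standard error 0.13). Without both it was -0.47 (standard error 0.10). For Nr4a3 the value without IGF1 replicate 1 was 0.09, and it was -0.02 without IGF1 replicate 2 and -0.0013 with libraries scaled by total counts only. No direction is therefore given for Nr4a3. Nr4a2 stayed between -0.13 and -0.07 when any 1 library was left out.

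**Figure D4:**
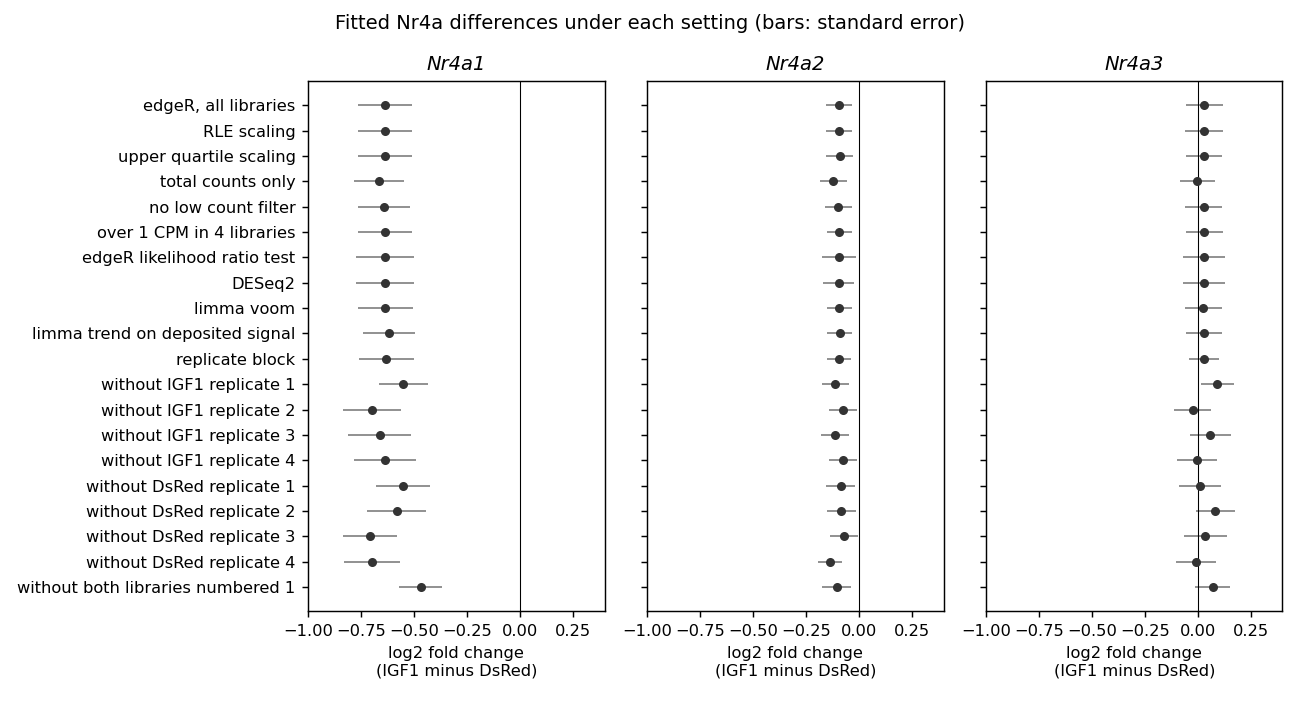
Fitted log2 fold change of each Nr4a member (points, horizontal axis, IGF1 minus DsRed) with its standard error (bars) under the planned fit and each alternative in scaling, filter, tool and libraries. All Nr4a1 points lie between -0.71 and -0.47, all Nr4a2 points between -0.13 and -0.07, and the Nr4a3 points lie on both sides of 0.

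Gene reads per library ranged from 16347636 to 27377086, and the group ranges overlapped. Reads assigned to no annotated feature made up 31.2% to 32.9% of tabulated reads in IGF1 libraries and 30.7% to 31.6% in DsRed libraries. The 10 most abundant IDs took 13.6% to 16.6% of gene reads in IGF1 libraries and 11.8% to 13.9% in DsRed libraries. Both shares overlapped between the groups and were higher on average in the group with less Nr4a1, and their part in the result was not tested. In whole hippocampus, fewer cells that make Nr4a1 and less Nr4a1 RNA per cell cannot be told apart. Markers of cell types and of tissue next to the hippocampus, the Igf1 transcript, other immediate early genes, CREB pathway genes, retinoid X receptors and NR4A target genes were not analysed here, because no table used here pairs their Ensembl IDs with names.

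Apart from any difference between the groups, the members differed in how much they varied from rat to rat. The biological coefficient of variation, the spread left within groups beyond counting error as edgeR estimates it, was 13.1% for Nr4a1, 9.48% for Nr4a3 and 6.93% for Nr4a2. Among the 500 IDs nearest in mean level to each, 92.8% had a lower value than Nr4a1, 78.6% than Nr4a3 and 29.8% than Nr4a2. Nr4a1 was thus a variable transcript for its level in these rats, and Nr4a2 was not. The medians of those 3 sets of neighbours were 7.36%, 7.21% and 7.64%. These estimates are drawn toward the trend of all genes by the fit, and 4 rats per group limit their precision.

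The members were not shown to vary together within groups. To remove the contrast, each log2 CPM value was taken as its deviation from the group mean, and the deviations of each pair of members were correlated over the 8 libraries. For Nr4a1 and Nr4a3, Pearson's r was 0.564 and Spearman's rho 0.571, with exact two-sided permutation p within groups of 0.175 and 0.188, and 0.526 and 0.562 after Benjamini-Hochberg adjustment over the 3 pairs. Leaving out the 2 libraries farthest from the median Nr4a1 deviation gave an r of 0.44. Each r without 2 libraries in this paragraph kept the deviations from the full group means. The means were not taken again after the removal, so such an r is not free of a difference between the groups. For Nr4a1 and Nr4a2, r was 0.024 and rho -0.262, with exact permutation p of 0.974 and 0.562, or 0.974 and 0.767 adjusted. That r became 0.733 without the same 2 libraries, DsRed replicate 3 and IGF1 replicate 1, so it rests on them. For Nr4a2 and Nr4a3, r was -0.143 and rho -0.143, with exact permutation p of 0.736 and 0.767, or 0.974 and 0.767 adjusted. Without the 2 libraries farthest from the median Nr4a2 deviation that r was -0.61. Both pairs with Nr4a2 pooled groups that ran opposite ways, negative among the IGF1 libraries and positive among the DsRed libraries. IGF1 replicates 1 and 3 were the higher in Nr4a2 and the lower in Nr4a3, whereas DsRed replicate 4 was the lowest of its group in both. The pooled r near 0 of these pairs is therefore no measure of either group, 4 libraries are too few for an r of their own, and the difference between the groups was not tested. Nr4a1 and Nr4a3 ran the same way in both groups. The smallest p that these 576 permutations allow is 0.0017, which permits a p under the threshold but does not measure the power to detect a relation. Without DsRed replicate 1, an r of 0.79 for Nr4a1 and Nr4a3 had an adjusted permutation p of 0.208. A p that misses the threshold does not show that the receptors vary independently.

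**Figure D5:**
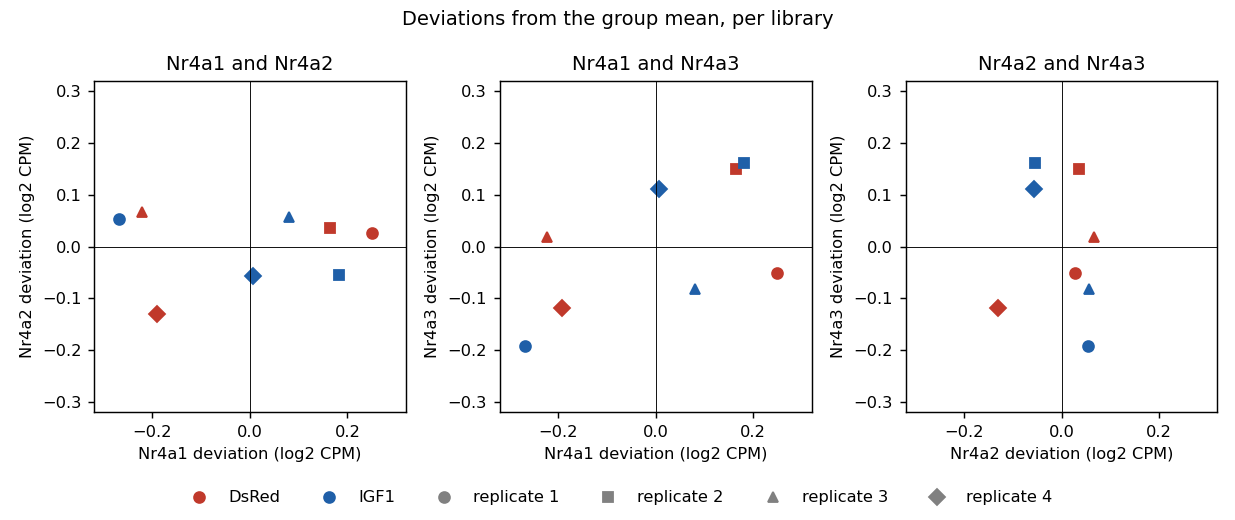
Deviation of each library from its group mean in log2 CPM for each pair of Nr4a members, with colour for the group and symbol for the replicate number. Points for Nr4a1 and Nr4a3 spread loosely along a rising line (Pearson's r 0.564), those for Nr4a1 and Nr4a2 show no line (0.024), and Nr4a2 spans a narrower range than the other two.

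The IDs whose levels followed the family most closely were found by correlating the log2 CPM of every other ID of sufficient level, 12694 in all, with a family profile over the 8 libraries. The profile was the mean of the 3 members, each scaled to the same variance. It was not centred by group, so it carries the group difference on which the members were selected. Nr4a1 itself correlated with it at 0.844, Nr4a2 at 0.658 and Nr4a3 at 0.504. The closest ID was ENSRNOG00000014693, with a Pearson's r of 0.966 and levels of 60.7 ± 0.91 CPM after the IGF-I vector and 63.3 ± 2.02 CPM after placebo (SD, n = 4 each). It was followed by ENSRNOG00000001222 with 0.959, at 29.8 ± 0.58 CPM and 31.0 ± 1.05 CPM. Both covered a far narrower range of levels than Nr4a1. ENSRNOG00000014693 correlated at 0.830 with Nr4a1, 0.597 with Nr4a2 and 0.510 with Nr4a3. The most opposed were ENSRNOG00000033624, with an r of -0.968 and levels of 13.2 ± 0.77 CPM and 11.98 ± 0.94 CPM, and ENSRNOG00000046918, with -0.944. These values are the extremes of 12694 correlations over 8 libraries that share their depth and scaling, and are given as a description with no p. Of all candidates, 1.97% had an r beyond 0.8 in either direction. The group levels of the named IDs are no evidence apart from the selection of the members. With deviations from the group means, r was 0.911 for ENSRNOG00000014693 and 0.892 for ENSRNOG00000001222. It was -0.900 for ENSRNOG00000033624 and -0.867 for ENSRNOG00000046918, all IDs already picked as extremes.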

How the data were processed

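Libraries of 8 rats, 4 per group, were prepared from right hippocampus RNA with a TruSeq kit, per the labels' protocols. Tools listed in the submitters' processing notes are CASAVA 1.8.2, HTSeq, STAR and edgeR, with no role for each. The authors deposited raw read counts for 26405 Ensembl IDs with 3 summary rows, which entered neither library sizes nor tests. Of these, 1 was above 0, the reads assigned to no annotated feature, at 30.7% to 32.9% per library. A second deposited table is labelled as log2 CPM, but its signal values are linear, with each library's counts divided by 1 number. It served 1 alternative, after adding a pseudocount of 1 and taking log2, a scale that understates changes of low genes.

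Groups came from sample titles and columns from rat names in the descriptions. The 28 pairs of libraries differed by at least 5.74 chi-square units per degree of freedom, so none was deposited a second time. In R 4.3.3, edgeR 4.0.16 kept IDs by filterByExpr (minimum count 10, minimum total 15), which left 14522, scaled them by TMM, and fitted group alone with glmQLFit and glmQLFTest, two-sided, at an adjusted p of 0.05. Standard errors are the log2 fold change over the square root of F. Log2 CPM used a prior count of 2. DESeq2 1.42.0 and limma 3.58.1 gave alternatives. The fit and the permutation test were also run on simulated data. The outcomes are not given here, so nothing is read from those runs about the power of either.

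The members, the lists and the tests were chosen with earlier results of these data known. The members were always named. Of other IDs, the rule took those most like the mean scaled profile of the members among those averaging 1 or more in log2 CPM. Without symbols, it took the 2 highest and the 2 lowest correlations. None of the 47357 genes listed by RefSeq carried an Ensembl ID, so the gene and cell type lists were not analysed here. Sequence motifs were chosen after the promoters had been read.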

Additional observations from a re-analysis of the deposited data

How the results depend on the processing

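The count of 0 IDs past the adjusted threshold was the same in 17 of 20 alternatives. It was 11 with edgeR's likelihood ratio test and 12 with DESeq2, Nr4a1 being among each, and leaving out 1 library gave 0 to 1, the 1 call coming without DsRed replicate 2 and being no NR4A member. The cause was not tested. The Nr4a1 log2 fold change lay between -0.71 and -0.47 over 19 alternatives, and between -0.71 and -0.55 when 1 library was left out. Its sign is fixed by the choice of a gene with separated groups and is no sign of stability. Nr4a2 lay between -0.13 and -0.07 over the same alternatives, and Nr4a3 between -0.02 and 0.09, negative in 4 of 19. Within groups, the r of Nr4a1 and Nr4a2 was -0.15 with total counts only and -0.55 to 0.28 when 1 library was left out. That of Nr4a2 and Nr4a3 was 0.17 without both libraries numbered 1, an alternative chosen after seeing the data, and -0.81 to 0.13 when 1 library was left out. That of Nr4a1 and Nr4a3 was 0.31 to 0.79 when 1 library was left out. None of the 3 pairs passed an adjusted p of 0.05 in the exact permutation test under any of 12 alternatives (0.208 to 0.993). The alternative without both libraries numbered 1 leaves too few permutations for 1 pair alone to pass after adjustment, so it decides nothing. A replicate block built from the title numbers gave 0 calls and an Nr4a1 value of -0.63, so the block changed no call. Libraries sharing a number had deviations that correlated at 0.055, 0.126, 0.244 and 0.134, and the labels name separate rats, so the block is not a pairing by design. The best match was the own number for all 4 IGF1 libraries but not for all DsRed libraries. The 4 IDs named for their likeness to the family kept the sign of their r in all 10 alternatives. They were picked as extremes in the same libraries, so the kept sign is no sign of stability. The list of the 10 closest IDs shared only 2 to 8 members with that of the planned setting.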

Other observations

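The levels of the 3 members and their ratios, 12 sets of 4 libraries, were searched for a library far from the rest of its group. None had a gap to its nearest neighbour beyond Dixon's limit for 4 values. The largest gap was 0.785 of the group's range, for the low Nr4a2 level of DsRed replicate 4, the library through which the 2 groups overlap for that gene.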
